A study of Mus musculus with 24 samples.

Results

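Transcripts of 10 genes of simple epithelia were followed in mouse embryos and yolk sacs with a constitutive knockout (KO) of Cmtr2, an enzyme that methylates the cap at the start of messenger RNAs, and in wild-type (WT) littermates. The genes are the simple keratins Krt7, Krt8, Krt18 and Krt19, the adhesion genes Epcam and Cdh1, the claudins Cldn4, Cldn6 and Cldn7, and the splicing regulator Esrp1. They make up 10 of the 54532 gene IDs in the deposited tables, matched by the symbol of each Ensembl ID, and were chosen by the measured FPKM of embryos at embryonic day 9.5 (E9.5), in which the keratins were higher in KO embryos. Values of the 10 genes in E9.5 embryos are therefore given as a description. Tests are given for E8.5 embryos and E9.5 yolk sacs, whose values were not used to pick the genes. Earlier results of these data were known when genes and tests were chosen, so these tests are not shown to be independent of the choice.

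The 24 libraries form 3 sets: KO and WT embryos at E8.5, KO and WT embryos at E9.5, and KO and WT yolk sacs at E9.5, with 4 libraries of each genotype in each set. The animals carry no treatment, and the sources used here do not name the strain, the deleted part of Cmtr2 or any pooling of embryos. By the series' description, E8.5 KO embryos looked like their littermates, E9.5 KO embryos were smaller than theirs, and the samples came from 2 litters at E8.5 and 4 litters at E9.5. Nothing else says how replicates are related, so the p-values below speak only for the spread among these libraries.

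Keratin filaments are built from pairs of a type II keratin, such as Krt7 or Krt8, and a type I keratin, such as Krt18 or Krt19. Krt8 and Krt18 are among the first keratins made by the mouse embryo, and the visceral endoderm that lines the yolk sac is a polarized epithelium rich in them. Simple epithelia seal and hold their cells together with claudins in tight junctions and with E-cadherin, the product of Cdh1, in adherens junctions. Snail and Zeb repressors bind E-box elements in promoters of such genes during epithelial to mesenchymal transitions.

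All 24 libraries carry a genotype tag that contradicts their title, and the title was used for grouping. Cmtr2 itself averaged 0.704 ± 0.160 scaled FPKM in E8.5 KO embryos and 6.16 ± 0.395 in E8.5 WT embryos, 0.539 ± 0.126 in E9.5 KO embryos and 3.51 ± 0.594 in E9.5 WT embryos, and 0.197 ± 0.0961 in KO yolk sacs and 3.57 ± 0.341 in WT yolk sacs (SD, n = 4 each), which goes with the titles. FPKM counts the sequenced fragments of a gene relative to its length and to the library's depth, and was scaled further within each set. Depth ran from 15555422 to 23379198 fragments per library. Summed markers of visceral endoderm were at 8634 to 13545 scaled FPKM in yolk sac libraries and at 18.5 to 560.1 in E9.5 embryo libraries, and E8.5 embryo libraries held 1708 to 7081 of them. Levels are not compared between E8.5 and E9.5 tables, whose FPKM rest on different gene lengths, nor tested between the E9.5 tables, which were normalised separately.

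The 10 genes lie on 6 chromosomes of the GRCm38 build. Krt7 (chr15:101411043-101430313, plus strand), Krt8 (chr15:101996698-102004482, minus strand) and Krt18 (chr15:102028180-102032027, plus strand) lie near each other, with Krt8 and Krt18 on opposite strands. Krt19 is at chr11:100140810-100148665 on the minus strand, and Cldn7 is on the same chromosome at chr11:69964779-69967885 on the plus strand. Epcam (chr17:87635979-87651129) and Cldn6 (chr17:23679249-23682446) are on the plus strand, as is Cdh1 (chr8:106603351-106670246). Cldn4 (chr5:134945119-134946934) and Esrp1 (chr4:11331933-11386783) are on the minus strand. A processed pseudogene of Krt8 on chromosome 7, Krt8-ps, had 0.161 to 3.70 scaled FPKM over all libraries, and the sources used here do not say how reads shared with Krt8 were counted.

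RefSeq promoter sequences of the GRCm38.p6 assembly were read for 6 of the 10 genes, in 7 windows of 250 bases ahead of an annotated start. All 6 genes had the E-box CACCTG, or CAGGTG on the other strand, in at least 1 window. By window it was in 6 of the 7, against 17.2% of 32851 mouse promoter windows of the same length. Each site is shown with 12 bases on either side, because the E-box was in more of the 6 genes than the other elements searched here. The sequences are read along the gene's own strand and the capitals mark the E-box.
Krt7, chr15:101412347-101412376, plus: ccgccctgtcccCACCTGtgtgcgctcagc
Krt18, chr15:102027990-102028019, plus: aggggctaacacCACCTGctatcctttgtg
Epcam, chr17:87635780-87635809, plus: gccagtagggccCACCTGctggaggaccgg
Epcam, chr17:87635948-87635977, plus: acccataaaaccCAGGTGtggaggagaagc
Cldn6, chr17:23679260-23679289, plus: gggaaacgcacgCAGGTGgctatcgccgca
Cldn7, chr11:69965312-69965341, plus: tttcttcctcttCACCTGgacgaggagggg
Cldn7, chr11:69965352-69965381, plus: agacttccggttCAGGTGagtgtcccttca
Cldn4, chr5:134946931-134946960, minus: ctttaactgcagCACCTGtggccgcccttt
The sites of Krt7, Cldn6 and Cldn7 lie inside the annotated gene, each in the window of a start within it. Those windows have 162, 116 and 221 of their 250 bases in annotated exons. The window of the other Cldn7 start held no site. Searched on both strands in the same windows, the GC box GGGCGG was in 5 of the 6 genes, against 32.7% of all windows. The AP-1 element TGANTCA was in 1 of the 6 genes against 6.75% of windows, the TATA box TATAAA in 0 of them against 12.4%, and the Grainyhead-like element AACCGGTT in 0 of them against 0.116%. These are matches of letters in a window, and binding was not measured. GC content of the 7 windows ran from 51.2% to 66.0%, where the median of all windows was 52.4%, and its part in the E-box count was not tested.

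**Figure D1:**
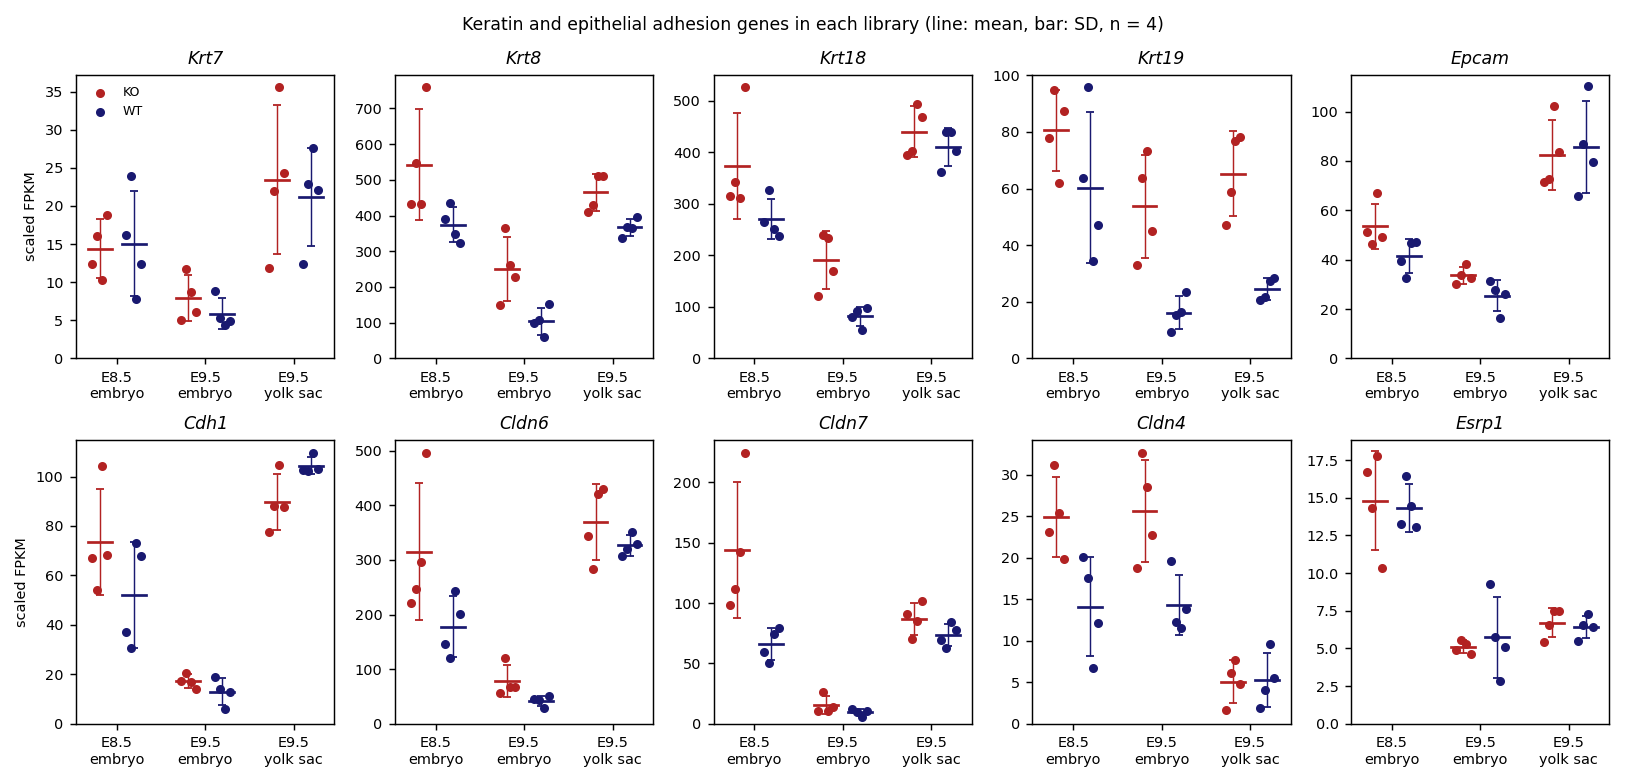
Each panel plots the scaled FPKM (linear axis) of 1 gene in the 8 libraries of each set, KO in red to the left of WT in dark blue, with the mean as a line and the SD as a bar (n = 4). Krt19 in E9.5 embryos and in yolk sacs, and Cldn7 in E8.5 embryos, have every KO library above every WT library.

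In E9.5 embryos, the set in which the genes were chosen, 9 of the 10 genes had a log2 fold change above 0, as did 50.7% of all tested genes, and Krt19, Krt8 and Krt18 led. The median log2 fold change of the 10 genes was 0.70, where that of all 12027 genes tested was 0.01. Krt19, the smallest type I keratin, had 33.1, 63.9, 73.2 and 44.9 scaled FPKM in KO embryos, against 9.22, 15.5, 16.3 and 23.5 in WT embryos. The lowest KO embryo was above the highest WT embryo, and the log2 fold change of 1.71 (SE 0.30) was the largest of the 10.

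The keratins Krt8 (type II) and Krt18 (type I) differed by similar amounts. Krt8 had 149, 366, 261 and 228 scaled FPKM in KO embryos, against 97.8, 108, 59.1 and 152 in WT embryos. KO replicate 1 lay just under WT replicate 4, so the Krt8 groups overlapped, with a log2 fold change of 1.27 (SE 0.32). Krt18 had 121, 239.8, 233 and 169 in KO embryos and 80.4, 92.2, 54.5 and 97.8 in WT embryos, with no overlap and a log2 fold change of 1.21 (SE 0.25). Krt7, the type II keratin of glandular and ductal epithelia, was far lower, at 5.03, 11.8, 8.72 and 6.10 in KO embryos and 8.83, 5.32, 4.43 and 4.92 in WT embryos. Its groups overlapped and its log2 fold change of 0.38 (SE 0.27) was below those of the claudins, Epcam and Cdh1, with 0.17 when KO replicate 2 was left out. That order changed when a trend with gene length was removed, as given below. Whole embryos were sequenced, so more cells with a keratin transcript and more transcript per cell cannot be told apart.

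The claudins stood next. Cldn6, a claudin of early embryonic epithelia, had 57.0, 120.3, 67.9 and 67.7 scaled FPKM in KO embryos, against 44.8, 42.8, 29.2 and 51.6 in WT embryos, with no overlap and a log2 fold change of 0.85 (SE 0.25). Cldn4 averaged 25.7 ± 6.14 in KO embryos and 14.3 ± 3.62 in WT embryos, and WT replicate 1 reached 19.6, above the lowest KO embryo at 18.8. Its log2 fold change was 0.82 (SE 0.21). Cldn7 was at 0.59 (SE 0.30), and its 26.0 in KO replicate 2 stood well above the 10.2 to 13.8 of the other KO embryos. Without KO replicate 2 it was at 0.30 and without WT replicate 3 at 0.38. So 3 of the 10 genes, Krt18, Krt19 and Cldn6, had every KO embryo above every WT embryo, and 11.2% of all tested genes did; the choice of genes fixed that count.

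Epcam, Cdh1 and the splicing regulator Esrp1 also overlapped between the genotypes. Epcam, which encodes a homophilic adhesion protein of epithelial cells, averaged 33.7 ± 3.46 scaled FPKM in KO embryos and 25.3 ± 6.33 in WT embryos. Cdh1 averaged 17.2 ± 2.75 in KO embryos and 13.0 ± 5.32 in WT embryos, and Esrp1, which directs epithelial splicing, averaged 5.10 ± 0.424 in KO embryos and 5.73 ± 2.67 in WT embryos (SD, n = 4 each for the 3 genes). Their log2 fold changes were 0.44 (SE 0.19), 0.48 (SE 0.29) and -0.05 (SE 0.27). WT replicate 3 was lowest in all 3 genes, and without it the values were 0.24 for Epcam, 0.17 for Cdh1 and -0.33 for Esrp1. As ratios within a library, Krt19 over Epcam was 1.10, 1.89, 1.91 and 1.38 in KO embryos, against 0.295, 0.563, 0.995 and 0.896 in WT embryos, with no overlap, while Krt8 over Epcam overlapped (4.95 to 10.9 in KO embryos, 3.13 to 5.79 in WT embryos). Krt18 over Cdh1 overlapped as well, with means of 11.1 in KO embryos and 6.84 in WT embryos. Krt8 over Krt18 averaged 1.31 ± 0.173 in KO embryos and 1.25 ± 0.204 in WT embryos, and these ratios overlapped.

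Some E9.5 embryo libraries stood apart. T, the brachyury gene of the tailbud, was at 0.990 scaled FPKM in KO replicate 2, 0.511 in WT replicate 1 and 1.23 in WT replicate 3, where the other 5 embryos had 8.86 to 18.6. Without those 3 libraries the log2 fold changes were 1.30 for Krt19, 0.82 for Krt18, 0.69 for Krt8, 0.79 for Cldn4 and 0.44 for Cldn6, and the median of the 10 genes was 0.38. KO replicate 2 also had the highest Krt8, Krt18, Cldn4, Cldn6 and Cldn7 and the highest summed markers of surface ectoderm (85.7 scaled FPKM), visceral endoderm (560.1) and trophoblast (107). Most of that trophoblast sum was 1 gene, Hand1, at 92.7. Of 11 trophoblast markers 7 were higher on average in KO embryos and 1 was at 0 in every library. Prl3d1 went the other way, at 3.46 in KO embryos and 5.73 in WT embryos on average. Of 11 visceral endoderm markers 5 were higher on average in KO embryos. Surface ectoderm sums were 48.8, 85.7, 57.2 and 46.2 in KO embryos and 44.9, 35.5, 28.8 and 37.8 in WT embryos, and 7 of the 8 markers had the higher mean in KO embryos. Decidua sums were 15.2, 82.8, 53.6 and 97.8 in KO embryos and 12.1, 24.5, 30.3 and 21.7 in WT embryos, with 5 of 6 markers higher on average in KO embryos. Gut endoderm sums averaged 21.9 ± 3.91 in KO embryos and 21.5 ± 2.57 in WT embryos. The part of any of these markers in the keratin values was not tested. Rescaled to TPM, which has the same sum in every library, the median of all genes moved to -0.34 and the log2 fold changes were 1.38 for Krt19, 0.91 for Krt8, 0.50 for Cldn6 and 0.08 for Epcam.

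**Figure D2:**
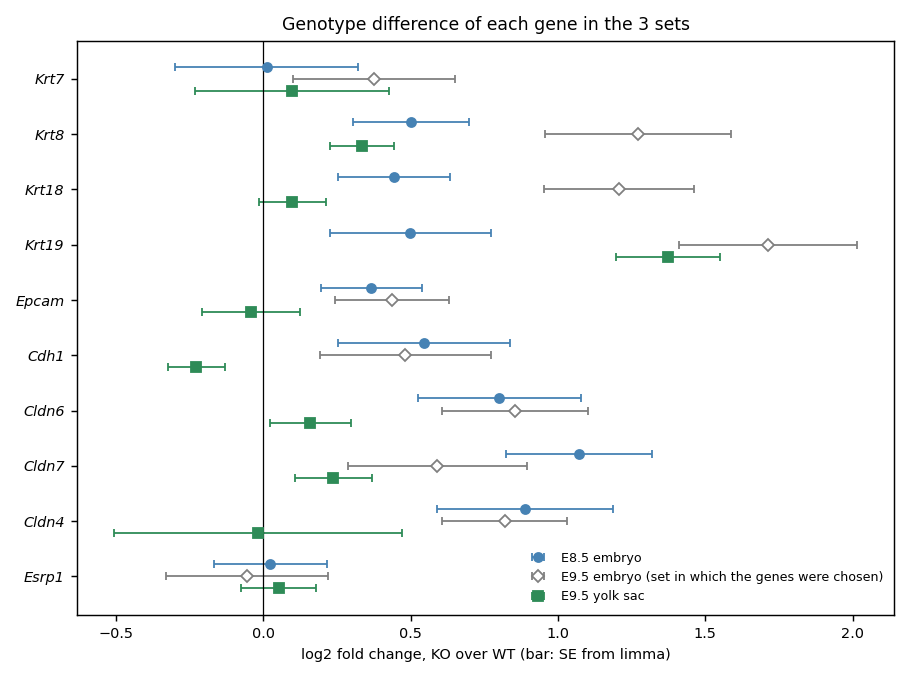
The horizontal axis is the log2 fold change, KO over WT, of each of the 10 genes, with the standard error from limma as a bar, in E8.5 embryos (blue circles), E9.5 embryos (open grey diamonds) and E9.5 yolk sacs (green squares). In yolk sacs Krt19 stands alone at 1.37, and in E8.5 embryos the 3 claudins are furthest to the right, from 0.80 to 1.07.

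Earlier results of these data were known, but the genes were not picked by E8.5 embryo values, and E8.5 embryos gave the first test. None of the 10 genes passed it, with limma at an adjusted p under 0.05, where 0.957% of the 13058 genes tested did with 0.528% risen and 0.429% fallen. All 10 log2 fold changes were above 0 in this fit, as were 50.8% of those of all tested genes, but Krt7 and Esrp1 were below 0 in FPKM as deposited and in TPM (-0.12 and -0.10) and changed sign with single libraries left out (-0.26 to 0.26 and -0.07 to 0.18). The median of the 10 was 0.50 beside 0.01 for all genes. An unadjusted p under 0.05 was found for 5 of the 10 and for 24.8% of all tested genes, and voom on the recovered fragments called 0 as well. Rescaled to TPM the median of all genes was -0.11, and the calls over all genes were 33 risen and 108 fallen, where the fit without rescaling had 69 and 56.

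The claudins were furthest from 0 here. Cldn7, a claudin of many simple epithelia, had 98.5, 112, 142 and 224 scaled FPKM in KO embryos, against 59.8, 50.2, 74.2 and 79.3 in WT embryos. It was the only gene of the 10 whose groups did not overlap, which 8.09% of all tested genes did in that direction, and its log2 fold change was 1.07 (SE 0.25, limma adjusted p = 0.0616). Cldn6 had 222, 247, 296 and 497 in KO embryos, against 147, 121, 244 and 200.4 in WT embryos, with a log2 fold change of 0.80 (SE 0.28, limma adjusted p = 0.122). Only KO replicate 1 lay within the WT range of Cldn6. Cldn4 had 23.1, 31.3, 25.4 and 19.9 in KO embryos, against 20.1, 17.6, 6.68 and 12.2 in WT embryos, with a log2 fold change of 0.89 (SE 0.30, limma adjusted p = 0.117), and KO replicate 4 was the single KO embryo within the WT range. Without WT replicate 3 Cldn4 was at 0.58.

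Replicates 1 and 2 of this set differed from replicates 3 and 4 in both genotypes, and which litter a library came from is not stated. Cldn6 in WT embryos was at 147 and 121 in replicates 1 and 2 and at 244 and 200.4 in replicates 3 and 4, and Cldn4 in WT embryos ran the other way. With a term for replicates 1 and 2 against 3 and 4, chosen because earlier results of these data showed the split, 3 of the 10 genes were called as risen by limma: Cldn7 (adjusted p = 0.00388), Cldn6 (adjusted p = 0.0164) and Cldn4 (adjusted p = 0.0276). That fit called 1652 genes over the whole set, against 125 without the term, so calls were more frequent throughout. Within replicates 1 and 2 alone the log2 fold changes of Cldn7, Cldn6 and Cldn4 were 0.92, 0.80 and 0.50, and within replicates 3 and 4 alone they were 1.20, 0.78 and 1.26, with 0 of the 10 genes called in either pair. KO replicate 4, which stood highest in Krt8, Krt18, Cldn6 and Cldn7, was then left out with the same term: Cldn7 (0.91), Cldn6 (0.65), Cdh1 (0.72) and Epcam (0.47) were called, and Cldn4 was not.

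The keratins were less far apart at E8.5 than the claudins. Krt8 had 432, 546, 431 and 760.0 scaled FPKM in KO embryos, against 392, 437, 347 and 324 in WT embryos, and Krt18 had 314, 342, 312 and 527 in KO embryos, against 264, 326, 252 and 237 in WT embryos. For both genes WT replicate 2 lay among the KO values. The log2 fold changes were 0.50 (SE 0.20, limma adjusted p = 0.154) for Krt8 and 0.44 (SE 0.19, limma adjusted p = 0.177) for Krt18. Krt19 had 77.7, 95.0, 62.0 and 87.4 in KO embryos, against 63.7, 95.9, 34.4 and 47.2 in WT embryos. Its highest value was in WT replicate 2, and its log2 fold change was 0.50 (SE 0.27, limma adjusted p = 0.279). With single libraries left out it ran from 0.27 (without WT replicate 3) to 0.75 (without WT replicate 2), and without KO replicate 4 Krt8 was at 0.32 and Krt18 at 0.26. The Krt19 share of the type I pair, Krt19 as a percentage of Krt18 plus Krt19, averaged 18.1% ± 3.34 in KO embryos and 17.7% ± 4.56 in WT embryos (SD, n = 4 each).

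Epcam, Cdh1, Krt7 and Esrp1 overlapped between the genotypes at E8.5. Epcam averaged 53.4 ± 9.20 scaled FPKM in KO embryos and 41.4 ± 6.93 in WT embryos, and Cdh1 averaged 73.4 ± 21.6 in KO embryos and 52.1 ± 21.4 in WT embryos (SD, n = 4 each). Their log2 fold changes were 0.37 (SE 0.17, limma adjusted p = 0.212) and 0.55 (SE 0.29, limma adjusted p = 0.268). Without WT replicate 2 Cdh1 was at 0.32. Cdh1 in WT embryos split by number, at 37.1 and 30.6 in replicates 1 and 2 and at 73.0 and 67.6 in replicates 3 and 4. Krt7, at 14.4 ± 3.83 in KO embryos and 15.1 ± 6.84 in WT embryos, and Esrp1, at 14.8 ± 3.29 in KO embryos and 14.3 ± 1.57 in WT embryos, had log2 fold changes of 0.01 (SE 0.31) and 0.02 (SE 0.19). Neither passed the test (limma adjusted p = 0.987 and 0.951), which does not show that their levels were equal.

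Summed markers of visceral endoderm overlapped between the genotypes at E8.5, and 0 of the 11 markers passed the test by limma. The sum was 3613, 3387, 5212 and 7081 scaled FPKM in KO embryos, against 2039, 1708, 4851 and 3854 in WT embryos, with 8 of the 11 markers higher on average in KO embryos. KO replicate 4 was highest in the marker sum and in Krt8, Krt18, Cldn6 and Cldn7. Trophoblast sums were 129, 194, 183 and 296 in KO embryos and 81.8, 82.8, 115 and 190.3 in WT embryos, with 6 of 11 markers higher on average in KO embryos and 1 at 0 in every library. Gut endoderm sums were 59.8 to 74.5 in KO embryos and 27.0 to 57.0 in WT embryos, without overlap, with 6 of 8 markers higher on average in KO embryos. Surface ectoderm sums were 57.3 to 75.6 in KO embryos and 34.1 to 56.3 in WT embryos, just apart, with 7 of 8 markers higher. Each list had 7 markers tested and 0 called by limma. Only 1 gut endoderm and 0 surface ectoderm markers had all KO libraries above all WT libraries, as did 8.09% of all tested genes. The part of these markers in the claudin and keratin values was not tested.

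**Figure D3:**
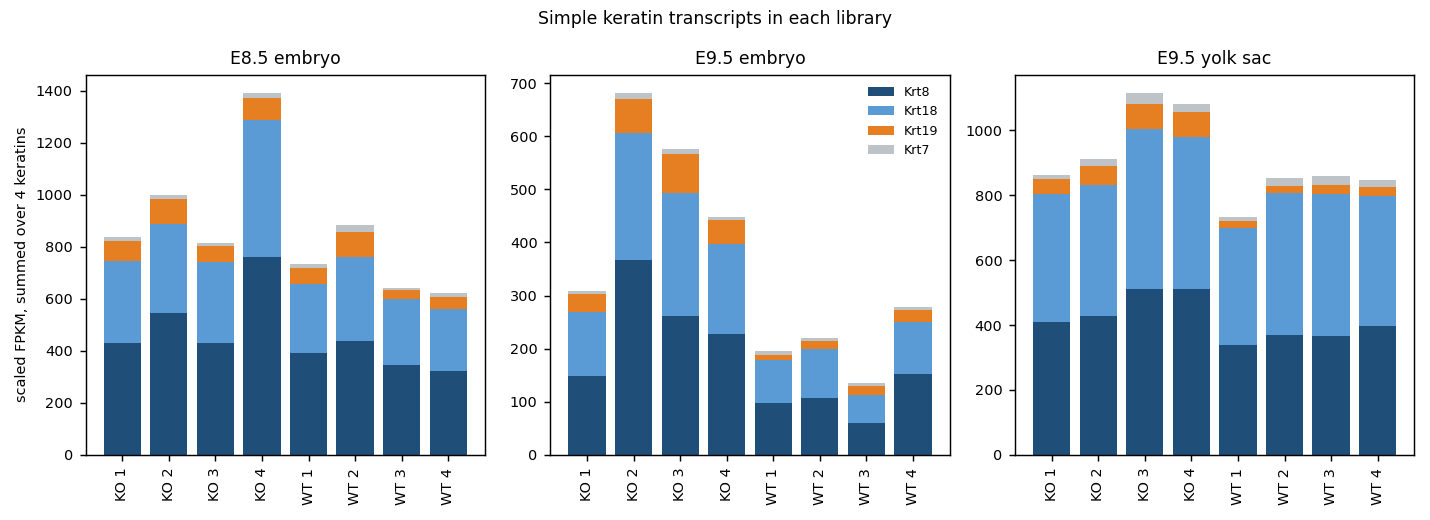
Bars give the scaled FPKM of Krt8, Krt18, Krt19 and Krt7, stacked, in each library of the 3 sets, KO libraries to the left of WT libraries. The sum is 308 to 682 in E9.5 KO embryos and 134 to 278 in E9.5 WT embryos, and in yolk sacs it is 863 to 1116 in KO and 732 to 859.9 in WT, with higher Krt8 and Krt19 layers in KO yolk sacs.

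In yolk sacs Krt19 was the gene that passed the test. Krt19 had 47.0, 58.7, 76.9 and 78.3 scaled FPKM in KO yolk sacs, against 20.7, 21.7, 27.4 and 28.4 in WT yolk sacs. Every KO yolk sac was well above every WT yolk sac, and Krt19 rose by 1.37 on the log2 scale (SE 0.18, limma adjusted p = 0.00702), or 2.59-fold. It was the only 1 of the 10 genes that was called, where 2.84% of the 12010 genes tested were called with 1.22% risen and 1.62% fallen. The call held in 18 of 20 alternatives, whose log2 fold changes ran from 1.28 to 1.52 and adjusted p from 0.000451 to 0.0644, limma or voom in each case. The 2 without a call were replicates 1 and 2 alone (1.29, limma adjusted p = 0.0644) and replicates 3 and 4 alone (1.45, limma adjusted p = 0.0557). Over the whole set those 2 fits called 0 and 2 genes.

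The partner keratins had smaller log2 fold changes. Krt8 had 409.6, 429, 509.8 and 510.3 scaled FPKM in KO yolk sacs, against 338, 368, 366 and 397 in WT yolk sacs, without overlap. Krt8 and Krt19 were thus 2 of the 10 genes with all KO libraries above all WT libraries, as were 5.77% of all tested genes, and 0 of the 10 lay the other way, as did 6.74%. The Krt8 log2 fold change of 0.33 (SE 0.11, limma adjusted p = 0.136) did not pass the test, and it passed once a term for replicates 1 and 2 against 3 and 4 was added (limma adjusted p = 0.0461). Krt18 had 394, 402, 494 and 469 in KO yolk sacs, against 361, 439.7, 439 and 401 in WT yolk sacs. These groups overlapped, at a log2 fold change of 0.10 (SE 0.11, limma adjusted p = 0.698). Krt7 was at 0.10 as well (SE 0.33, limma adjusted p = 0.905), with 23.4 ± 9.75 in KO yolk sacs and 21.2 ± 6.42 in WT yolk sacs (SD, n = 4 each).

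The proportions of the keratin transcripts are given without a test. Krt19 made up 10.6%, 12.7%, 13.5% and 14.3% of the type I pair in KO yolk sacs, against 5.43%, 4.70%, 5.89% and 6.61% in WT yolk sacs. The groups were well apart. Krt8 over Krt18 was 1.04, 1.07, 1.03 and 1.09 in KO yolk sacs, against 0.938, 0.837, 0.833 and 0.989 in WT yolk sacs, also without overlap. Krt19 over Epcam was 0.657 to 0.936 in KO yolk sacs and 0.249 to 0.357 in WT yolk sacs.

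None of the claudins or adhesion genes passed the test in yolk sacs. Cldn6 averaged 369.7 ± 69.2 scaled FPKM in KO yolk sacs and 327 ± 18.6 in WT yolk sacs, and Cldn7 averaged 87.0 ± 13.3 in KO yolk sacs and 73.5 ± 9.17 in WT yolk sacs (SD, n = 4 each). Their log2 fold changes were 0.16 (SE 0.14, limma adjusted p = 0.589) and 0.24 (SE 0.13, limma adjusted p = 0.367). Cldn4 was low and scattered, from 1.71 to 7.68 in KO yolk sacs and from 1.91 to 9.65 in WT yolk sacs, with a log2 fold change of -0.02 (SE 0.49). Epcam was at -0.04 (SE 0.17) and Esrp1 at 0.05 (SE 0.13). Cdh1 had 77.7, 88.1, 105 and 87.7 in KO yolk sacs, against 103, 102, 109.7 and 103 in WT yolk sacs, with 3 of the 4 KO libraries under all WT libraries and a log2 fold change of -0.23 (SE 0.10, limma adjusted p = 0.240). Of the 10 genes 7 had a log2 fold change above 0, beside 52.2% of all tested genes, and the median was 0.10 beside 0.01.

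**Figure D4:**
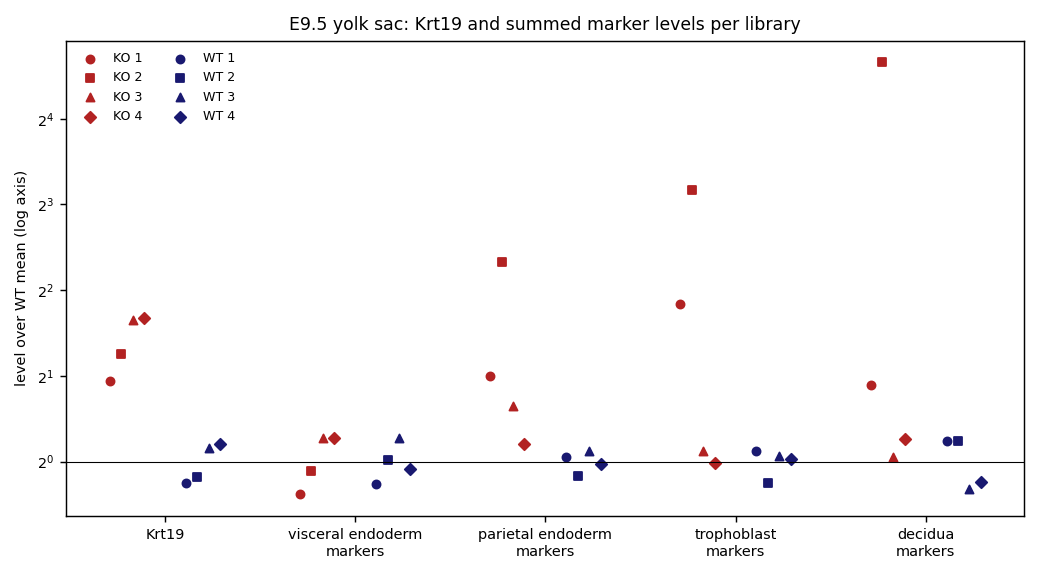
For each yolk sac library the level of Krt19 and the summed level of 4 marker lists are given over the WT mean, on a log axis, with KO in red to the left of WT in dark blue and 1 symbol per replicate number. KO replicates 1 and 2 are highest in trophoblast and parietal endoderm markers. All KO libraries lie above all WT libraries in Krt19 and in parietal endoderm markers.

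Markers of neighbouring tissues, among them trophoblast, which also makes Krt19, differed between yolk sac libraries. Parietal endoderm sums were 1024, 2566, 802 and 586 scaled FPKM in KO yolk sacs, against 531, 456, 554 and 501 in WT yolk sacs, and all 8 markers were higher on average in KO yolk sacs. Trophoblast sums were 182, 460.0, 55.5 and 50.5 in KO yolk sacs, against 55.7, 43.1, 53.5 and 52.0 in WT yolk sacs, with 8 of 11 markers higher on average in KO yolk sacs and 1 at 0 in every library. Decidua sums were 30.7, 419, 17.1 and 19.9 in KO yolk sacs, against 19.6, 19.5, 13.3 and 14.0 in WT yolk sacs, with all 6 markers higher on average in KO yolk sacs. Trophoblast sums of KO replicates 3 and 4 were within the WT range, while their parietal endoderm sums, 802 and 586, were above every WT yolk sac. Most of the WT trophoblast sum, 51.1 on average, was Hand1 at 38.6, beside 2.51 for Prl3d1 and 0.992 for Prl2c2. The sum therefore says little about the lower trophoblast markers in KO replicates 3 and 4. Of 4 trophoblast markers tested, 1 had all KO libraries above all WT libraries, and 0 were called by limma. In decidua markers KO replicate 3 was within the WT range and KO replicate 4, at 19.9, was just above it. Visceral endoderm sums overlapped, at 8634 to 13544 in KO yolk sacs and 9403 to 13545 in WT yolk sacs. Only 3 of the 11 markers were higher on average in KO yolk sacs, and the median log2 fold change was -0.26. All 11 were tested, and limma called 1 as fallen and 0 as risen. Apoa1, the highest marker, averaged 3882 in KO yolk sacs and 2592 in WT yolk sacs, so the sums do not show the direction of most markers. The part of any of these tissues in the Krt19 value was not tested.

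The order of the levels was read within each table, per length. In KO yolk sacs Krt8 (465 ± 52.9), Krt18 (439.7 ± 49.3) and Cldn6 (369.7 ± 69.2) led with overlapping ranges, and in WT yolk sacs Krt18 (410.2 ± 37.5), Krt8 (367 ± 23.9) and Cldn6 (327 ± 18.6) led, with overlap between neighbours (SD, n = 4 each). Cdh1, Cldn7 and Epcam followed, apart from Cldn6 and overlapping each other in KO yolk sacs. Krt19 came below these 3 genes by mean, with ranges that overlapped theirs in KO yolk sacs. Krt7 came below Krt19, apart in KO yolk sacs and overlapping in WT yolk sacs. Esrp1 and Cldn4 were last with overlapping ranges. In E9.5 embryos Krt8 and Krt18 led in both genotypes, and Krt19 ranked 4 in KO embryos and 5 in WT embryos. In E8.5 embryos Krt8, Krt18, Cldn6 and Cldn7 were the first 4 in both genotypes, and the last 3 were Cldn4, Esrp1 and Krt7 in KO embryos and Krt7, Esrp1 and Cldn4 in WT embryos. The scaled FPKM of the 10 genes was at least 1.71 in every library, and all 10 passed the filter on low values in all 3 sets.

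Likeness to Krt8 was measured as the root mean square difference between log2 deviations from the group mean, over all 24 libraries and 10406 genes tested in all 3 sets. Krt18 was nearest at 0.120, where the deviations of Krt8 itself had a root mean square of 0.320 and the median gene stood at 0.390. The next 5 were Cd151, a tetraspanin of cell adhesion (0.143), Sumf2 (0.183), the mitochondrial ribosomal gene Mrpl54 (0.184), the chloride channel family gene Clic1 (0.188) and the annexin gene Anxa6 (0.194). Of the other genes followed here Cldn6 ranked 539 and Cldn7 978, while Krt19 ranked 1871, Epcam 2678, Cdh1 7994 and Cldn4 9675. The libraries share their depth and scaling, and this is a description of these 24 libraries.

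Genes of the same structures were read from 6 lists with 104 genes: other keratins, tight junction and polarity genes, adherens junction and desmosome genes, epithelial regulators, other membrane genes of epithelia, and mesenchymal genes. In E8.5 embryos 79 of them were tested, and 1 rose and 0 fell by limma, with 24 at an unadjusted p under 0.05, which 24.8% of all tested genes had. The gene that rose was St14, which encodes the epithelial membrane protease matriptase. It had 29.4, 27.3, 33.9 and 47.8 scaled FPKM in KO embryos, against 14.0, 9.96, 17.3 and 19.9 in WT embryos, without overlap, and a log2 fold change of 1.16 (SE 0.24, limma adjusted p = 0.0486). That call was lost when any 1 library was left out. With the term for replicates 1 and 2 against 3 and 4 added, 19 of the lists' 79 tested genes were called, 17 risen and 2 fallen. That fit called 1652 of all 13058 tested genes, 938 risen and 714 fallen.

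The lists had different medians at E8.5. Other membrane genes of epithelia had a median log2 fold change of 0.62 over 20 genes tested, with 17 above 0, and epithelial regulators had 0.61 over 12 genes, with 11 above 0. Tight junction and polarity genes had 0.34 over 16 genes. Adherens junction and desmosome genes were at 0.04 over 15 genes, and other keratins at 0.14 over 4 genes. Mesenchymal genes had a median of -0.30 over 12 genes, with 3 above 0, where the median of all tested genes was 0.01. Zeb1, a repressor gene of the mesenchymal list, had 12.4, 10.9, 10.3 and 6.41 scaled FPKM in KO embryos, against 15.7, 21.6, 13.4 and 15.1 in WT embryos. The groups did not overlap, with all KO libraries below all WT libraries as in 7.58% of all tested genes, and its log2 fold change of -0.70 (SE 0.23, limma adjusted p = 0.107) did not pass the test. Zeb2 had the lowest log2 fold change of that list, -0.73, and did not pass the test either. Zeb1 and Zeb2 were the 2 fallen genes called with the term for replicates 1 and 2 against 3 and 4 (limma adjusted p = 0.0308 and 0.0225). That fit called 1652 genes over the whole set. With KO replicate 4 also left out, Zeb2 was called and Zeb1 was not. The part of Zeb1 or Zeb2 in the values of the 10 genes was not tested.

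In E9.5 embryos, in the contrast by which the 10 genes were picked, limma called 9 of 71 tested genes of the lists, 7 risen and 2 fallen, or 1 risen and 12 fallen when rescaled to TPM, where 13.6% of all 12027 tested genes were called, 7.35% risen and 6.26% fallen. The 7 were Krt5, a keratin of stratified epithelia, Tfap2c, a transcription factor of surface ectoderm and trophoblast, the protease inhibitor genes Spint1 and Spint2, St14, whose product these inhibitors block, Lsr, a gene of tricellular junctions, and Plekha7, a gene of adherens junctions. Log2 fold changes were 1.24 (SE 0.26) for St14, 1.07 (SE 0.25) for Krt5, 1.03 (SE 0.23) for Lsr, 0.88 (SE 0.21) for Spint1, 0.81 (SE 0.23) for Tfap2c, 0.76 (SE 0.18) for Spint2 and 0.44 (SE 0.13) for Plekha7. The 2 that fell were Zeb1, at 4.18, 3.05, 3.41 and 3.50 scaled FPKM in KO embryos against 5.70, 6.76, 5.54 and 5.47 in WT embryos (without overlap, as in 10.9% of all tested genes in that direction), and Prrx1, a homeobox gene of limb and head mesenchyme, at 3.83 ± 1.06 in KO embryos and 6.92 ± 1.89 in WT embryos (SD, n = 4 each). None of the lists' genes was called without KO replicate 2, KO replicate 3, WT replicate 2 or WT replicate 3, nor without the 3 embryos low in T, while 2 were called without KO replicate 4 and 16 without WT replicate 1. The tests over all genes rescaled to TPM gave 132 risen and 3113 fallen genes, where the fit without rescaling gave 884 and 753.

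In yolk sacs 64 of the lists' genes were tested and 0 were called by limma or by voom, with 16 at an unadjusted p under 0.05, which 19.2% of all tested genes had, and a median log2 fold change of 0.06. Leaving out KO replicate 1 or KO replicate 3 gave 1 call each, and leaving out WT replicate 3 gave 2. No label pairs the yolk sac libraries. With the replicate numbers taken as pairs and fitted as a block, 4 of these genes were called: Elf3, a transcription factor of epithelia (0.63, adjusted p = 0.0272), Perp, a desmosome gene (0.45, adjusted p = 0.0294), Twist1, a mesenchymal transcription factor (0.54, adjusted p = 0.0485), and Prss8, the channel-activating protease prostasin (-0.48, adjusted p = 0.0401). With the block 638 genes were called over the whole set, where 341 were called without it, and it left Krt19 as the only 1 of the 10 genes called. Elf3 had 5.80, 7.10, 7.74 and 8.26 scaled FPKM in KO yolk sacs, against 3.75, 4.22, 5.63 and 4.44 in WT yolk sacs. St14, Spint1 and Spint2 had log2 fold changes of 0.32 (SE 0.12), -0.02 (SE 0.11) and -0.01 (SE 0.14) in yolk sacs, and Krt5 was at 0 in all WT libraries and in 3 of the 4 KO libraries.

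**Figure D5:**
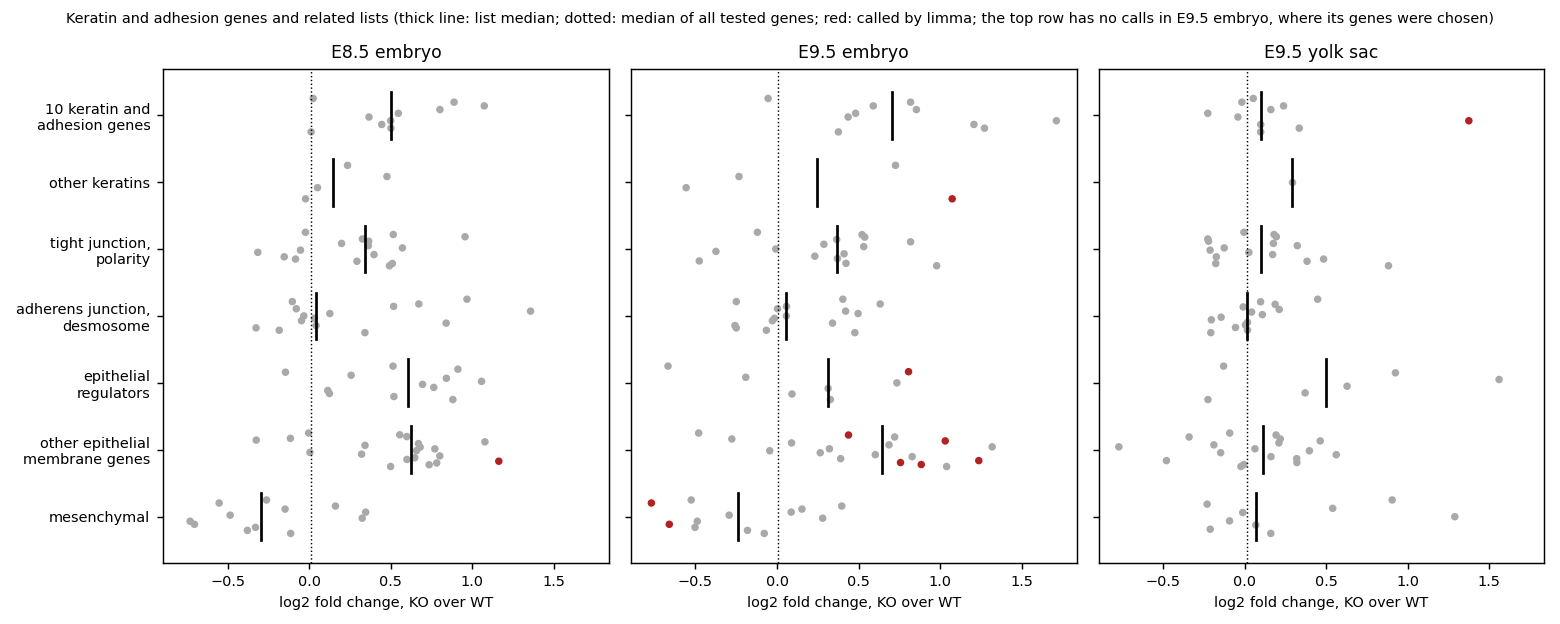
Points are log2 fold changes, KO over WT, of the 10 genes (top row) and of the genes of 6 related lists in the 3 sets, with the list median as a thick line, the median of all tested genes as a dotted line and genes called by limma in red (no call is shown for the 10 genes in E9.5 embryos). In both embryo sets the median of the other epithelial membrane genes lies at 0.62 or above and that of the mesenchymal genes lies below 0.

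Shorter genes tended to have higher log2 fold changes over all tested genes. Spearman's rho across genes was -0.18 in E8.5 embryos, -0.36 in E9.5 embryos and -0.11 in yolk sacs, and 7 of the 10 genes were shorter than the median tested gene. With the length trend removed, the E9.5 embryo log2 fold changes were 1.48 for Krt19, 1.04 for Krt8, 0.94 for Krt18, 0.60 for Cldn6 and 0.58 for Cldn4. The others were 0.53 for Krt7, 0.48 for Cdh1, 0.36 for Cldn7, 0.22 for Epcam and 0.07 for Esrp1. Krt7 thus stood above Cdh1, Cldn7 and Epcam, where it was below them without this step. The median of the 10 genes was 0.55, against 0.70 without this step. Genes are not independent replicates, and the part of gene length in the values was otherwise not tested.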

How the data were processed

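The authors deposited 3 tables of FPKM per gene, made from RNA sequencing of 24 libraries. DESeq2 and the build names GRCm38 and mm10 appear per the submitters' processing notes, which give neither aligner nor counter nor any use of strand. Total RNA went into NEBNext Ultra libraries, per the labels' protocols.

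GENCODE M21 gave symbols, positions and lengths for 54495 of 54532 gene IDs. FPKM times length came in steps of 1 fragment: 97.6 to 98.6 percent of values under 20 fragments were whole within 0.02. Mean transcript length fitted the E8.5 table, and union exon length fitted both tables of E9.5 samples. Depths come from these steps, as do the 59 (Cldn4, yolk sac) to 26364 (Krt8, E8.5) fragments behind the 10 genes.

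FPKM was divided by median-of-ratios factors within a table and log2 taken after adding 0.5, so fold changes of low genes are understated. A gene was tested if its FPKM reached 1 in 4 or more of the 8 libraries. The test was limma 3.58.1 (R 4.3.3) on genotype alone with a mean-variance trend, at a Benjamini-Hochberg adjusted p under 0.05 over all genes tested. Voom used the recovered fragments. Other steps used numpy 2.4.6, pandas 2.3.3 and matplotlib 3.10.9 under Python 3.11.15, and the fits were tested on simulated data.

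The 10 genes, the lists, the tests and the alternatives were chosen with earlier results of these data known. Named were the 10 genes, Cmtr2, up to 3 called genes in each direction per related list and table, and the 6 genes nearest to Krt8. Spint2, Plekha7, Zeb1 and Zeb2 at E8.5 and the genes called with the block in yolk sacs were named after their values were seen. Marker lists are given as sums per library. Promoters of 4 of the 10 genes are not reported here.

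In yolk sacs, deviations of KO and WT libraries with the same number correlated across genes at 0.362, 0.304, 0.387 and 0.209, the highest value of each KO library. KO replicate 2 also reached 0.288 with WT replicate 1, KO replicate 3 reached 0.295 with WT replicate 4, and KO replicate 4 reached 0.179 with WT replicate 3. The numbers were taken to pair the libraries, although a split of replicates 1 and 2 from 3 and 4 would give similar values. Replicates of a group correlated at 0.914 to 0.978, and libraries left out were refitted on the same genes.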

Additional observations from a re-analysis of the deposited data

Results flagged for a closer look

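Cdh1 in yolk sac WT replicate 3, at 109.7 scaled FPKM, stood apart from the other 3 WT yolk sacs, which had 102 to 103. It was the only 1 of 60 groups of 4 libraries, over the 10 genes, in which the gap to the nearest library was above Dixon's 95% critical value, and chance gives about 1 in 20. The difference is small beside the KO range of 77.7 to 105.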

How the results depend on the processing

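Of the 10 genes at E8.5, 0 were called in all fits except 3: the replicate block and the term for replicates 1 and 2 against 3 and 4 (3 each), and that term without KO replicate 4 (4, chosen after seeing the data). The numbers did not pair E8.5 libraries (deviations correlated at 0.310, 0.382, 0.333 and 0.0649, and 1 of 4 KO libraries correlated best with its own number) or E9.5 embryos (-0.0236, -0.0612, -0.207 and 0.154, 0 of 4). In yolk sacs 1 was called, 2 with the term for replicates 1 and 2 against 3 and 4, and 0 in either pair of replicates alone (fits also chosen after seeing the data); each library left out gave 1. The block changed no other call of the 10 genes. Genes of the related lists called at E8.5, 1 as reported, were 0 with a pseudocount of 0.1, no filter, FPKM as deposited, TPM, no trend, voom, replicates 3 and 4 alone or any library left out (range 0 to 0), 2 in replicates 1 and 2 alone, 15 with the block or with KO replicate 4 left out beside the term, and 19 with the term. In E9.5 embryos, 9 as reported, they were 0 with no filter, the block, either pair of replicates alone or the 3 embryos low in T left out, 4 with the length trend removed, 14 with voom and 0 to 16 with a library left out. In yolk sacs, 0 as reported, they were 2 with TPM or the length trend removed, 4 with the block, 3 with the term and 0 to 2 with a library left out. The cause of these differences was not tested. The E9.5 embryo median of the 10 genes, 0.70, ran from 0.53 to 0.83 with a library left out. Calls over all genes moved by over 1.5 times: 25, 112 and 146 with no filter in E8.5 embryos, E9.5 embryos and yolk sacs, 1261, 146 and 638 with the block, 33 to 82, 97 to 2727 and 89 to 293 with a library left out, where the reported fits gave 125, 1637 and 341; 1652 at E8.5 and 782 in yolk sacs with the term, 1139 at E8.5 with the term and no KO replicate 4, 3245 in E9.5 embryos with TPM, 35 there without the 3 embryos low in T, 224 at E8.5 and 942 in E9.5 embryos with the length trend removed, 56, 29 and 2 in replicates 3 and 4 alone, and 26 in E9.5 embryos and 0 in yolk sacs in replicates 1 and 2 alone. No log2 fold change that was called changed its sign.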
